A study of Mus musculus with 13 samples.

Results

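The interferon-linked PARP enzymes studied here were 8 genes, Parp9, Dtx3l, Parp14, Parp10, Parp12, Zc3hav1, Parp1 and Parp2, found by their symbols among the 54532 genes of the count table. All 8 had a row. The first 6 are genes with a known link to interferon, and Parp1 and Parp2 were included as family members outside the interferon response. The RNA came from Yumm1.7, a mouse melanoma cell line given as genotype WT, and each condition had 1 library. Total RNA was sequenced from cells given the solvent DMSO, the ADAR1 inhibitor ADAR1i-124 (10 μM, 12 h), the DNA methylation inhibitor 5-Aza-CdR (1 μM, 72 h), or both compounds. RNA was also precipitated after RNase I digestion with J2, an antibody to double-stranded RNA, or with Z22, an antibody to left-handed Z-form nucleic acid, from each of these treatments. An IgG library served as the precipitation control, and its treatment was not given. In the combination, ADAR1i-124 followed 5-Aza-CdR for another 12 h, and its dose in the precipitated combinations is uncertain. ADAR1 is the enzyme that converts adenosine to inosine in double-stranded RNA.

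PARP enzymes transfer ADP-ribose from NAD to proteins and nucleic acids. PARP1 and PARP2 sense DNA breaks and build chains of ADP-ribose, whereas PARP10, PARP12 and PARP14 attach single units and belong to the genes induced by interferon. PARP9 works in a complex with the ubiquitin ligase DTX3L, and ZC3HAV1, also called ZAP or PARP13, is a catalytically inactive member that binds CpG-rich viral RNA.

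The total RNA libraries of DMSO, ADAR1i-124 and 5-Aza-CdR held 17015425, 17617961 and 34571822 counts, and the 9 precipitated ones between 8167960 and 15324595. The total RNA library of the combination had 1245894 counts, of which 22.6% fell on genes annotated as antisense, against 0.106% to 0.176% in the other 12 libraries. Its counts follow the other strand, and it was left out of every comparison. A single locus, Gm42418, made up 34.9% of the Z22 counts with DMSO and 10.6% to 18.9% of the other precipitated libraries. Of 8 melanocytic markers, Mitf had 22.2 CPM (counts scaled so that each library sums to 1000000) with DMSO, whereas Dct, Tyr, Tyrp1, Mlana and Ednrb had no count there, so most pigment cell markers of the labelled melanoma line were absent. The 6 leukocyte markers summed to 0.353 CPM with DMSO, 1.02 with ADAR1i-124 and 2.49 with 5-Aza-CdR. The 4 fibroblast markers summed to 9.52, 28.9 and 325 CPM in the same order, and the 2 endothelial markers to 4.06, 18.2 and 82.7 CPM. With ADAR1i-124 the leukocyte sum rose mostly through Csf1r (2 to 17 counts). The fibroblast sum rose there through Pdgfra (5.23 to 25.4 CPM) and the endothelial sum mostly through Cdh5 (3.7 to 17.8 CPM). Itgam, Dcn and Col1a1 were lower with ADAR1i-124 than with DMSO, and Pecam1 had 0.397 and 0.353 CPM. The part of these cell type markers in the results below was not tested.

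A group of 3 interferon-linked genes lies close together on mouse chromosome 16 (build GRCm38). Parp14 runs from 35832874 to 35871544 on the reverse strand, Dtx3l from 35926511 to 35939151 on the reverse strand, and Parp9 from 35938470 to 35972605 on the forward strand. Parp9 and Dtx3l thus start head to head and overlap by 682 bases, of which 458 are exonic in both. Zc3hav1 (38305286 to 38354603) and Parp12 (39086410 to 39118349) both lie on the reverse strand of chromosome 6. Parp10 lies on chromosome 15 from 76231174 to 76243441, Parp1 on chromosome 1 from 180568924 to 180601254, and Parp2 on chromosome 14 from 50807841 to 50821301. Parp10 shares 205 exonic bases with Plec on the same strand, which had 9608 counts in the DMSO library against 753 for Parp10.

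The promoter windows of the genes with the largest and the smallest response to ADAR1i-124 among those in the RefSeq promoter table (build GRCm38.p6, 250 bases before to 50 after the start) are shown because interferon acts through response elements near the start of a gene. Of the 8 genes, 5 were matched, all but Parp9, Parp14 and Parp10. The core of the interferon-stimulated response element, GAAANNGAAA on either strand, was not found in any of the 5 windows, and 1131 of 32851 windows in the table held it (3.44%), as did 12 of 27 windows of other interferon-stimulated genes (44.4%). The single half-site GAAACT on either strand, chosen after the windows were seen, is capitalised. It occurs in the windows of Dtx3l (chr16:35938978-35939277, reverse strand) and Parp12 (chr6:39118300-39118599, reverse strand) and not in that of Zc3hav1 (chr6:38354554-38354853, reverse strand). It was present in 15.8% of all windows and in 17 of the 27 (63.0%). The half-site of Parp12 starts at base 1 of its window, so a core reaching past that edge would not have been counted.
Dtx3l: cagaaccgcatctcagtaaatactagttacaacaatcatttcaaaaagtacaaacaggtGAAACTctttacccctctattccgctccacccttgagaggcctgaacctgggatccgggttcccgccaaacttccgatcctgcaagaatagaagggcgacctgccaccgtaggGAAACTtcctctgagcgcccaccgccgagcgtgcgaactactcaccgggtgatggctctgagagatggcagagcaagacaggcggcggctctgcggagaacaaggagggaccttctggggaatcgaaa
Parp12: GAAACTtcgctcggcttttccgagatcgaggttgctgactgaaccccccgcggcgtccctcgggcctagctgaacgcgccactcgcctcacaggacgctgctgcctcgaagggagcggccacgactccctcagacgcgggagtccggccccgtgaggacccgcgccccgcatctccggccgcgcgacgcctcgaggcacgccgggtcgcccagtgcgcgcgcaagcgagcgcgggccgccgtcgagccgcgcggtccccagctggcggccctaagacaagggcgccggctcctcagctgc
Zc3hav1: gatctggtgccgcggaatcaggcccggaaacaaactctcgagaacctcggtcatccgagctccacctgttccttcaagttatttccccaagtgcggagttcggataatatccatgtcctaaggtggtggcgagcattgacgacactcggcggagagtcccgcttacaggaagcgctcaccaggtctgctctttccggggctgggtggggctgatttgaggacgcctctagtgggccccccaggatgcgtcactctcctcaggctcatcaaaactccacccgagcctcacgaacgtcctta
The windows of Parp1 and Parp2 held neither pattern.

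With ADAR1i-124, 5 of the 6 interferon-linked genes were lower in total RNA by 7-fold or more, and the sixth, Zc3hav1, stayed close to the middle of all genes. Parp1 and Parp2 were lower by less than 2-fold. Directions are those of the libraries as labelled. No gene was deleted or silenced by which the labels of the ADAR1i-124 and DMSO libraries could be checked, so these labels were not tested against the counts, and every ratio between these libraries rests on them. The values are log2 ratios of CPM with 0.5 CPM added to both sides, so that ratios of weakly counted genes are drawn toward 0. Ranges in parentheses are 95% intervals of the ratio without that addition, from the exact binomial (Clopper-Pearson) interval of the treated library's share of the reads. They describe counting error alone, since reads lacking molecular identifiers need not be separate molecules, and no difference has a replicate check. In bulk RNA, fewer cells that express a gene and less RNA per cell cannot be told apart.

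**Figure D1:**
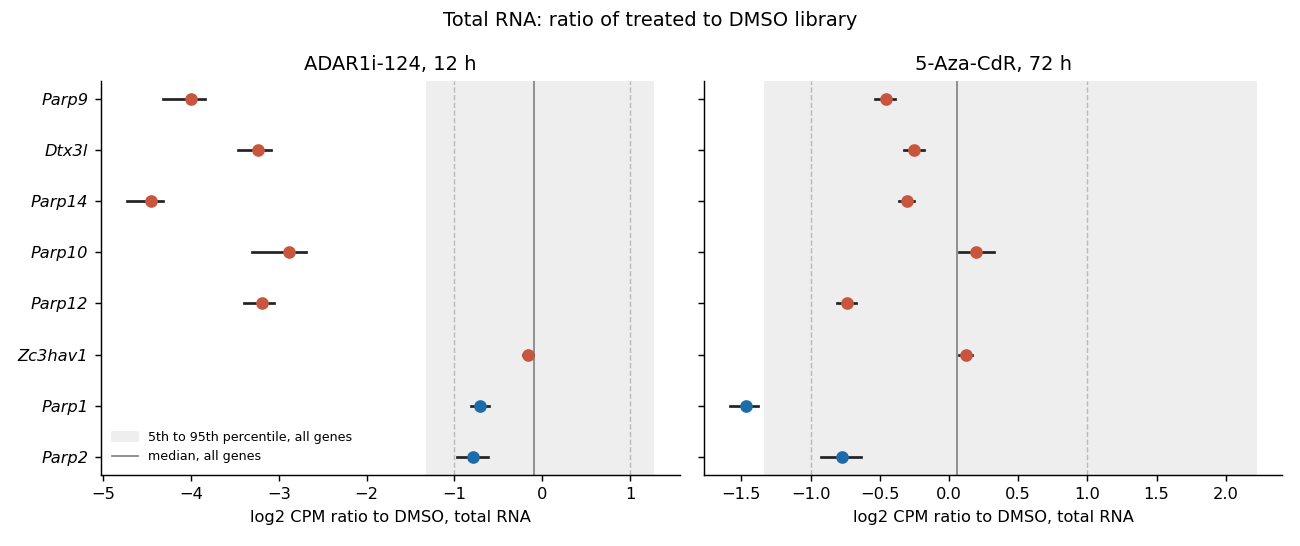
Log2 ratio of CPM in the treated to the DMSO library of total RNA for each gene, with points for the ratio, bars for the 95% counting interval, grey bands for the 5th to 95th percentile of all genes, grey lines for their median and dashed lines at 2-fold. Red points are the interferon-linked genes and blue points Parp1 and Parp2. Parp9, Dtx3l, Parp14, Parp10 and Parp12 lie left of the band with ADAR1i-124, between −4.46 and −2.88.

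Parp9, which encodes the partner of DTX3L, had 2574 counts (151 CPM) with DMSO, 158 (8.97 CPM) with ADAR1i-124 and 3801 (109.9 CPM) with 5-Aza-CdR. Its log2 ratio with ADAR1i-124 was −4.00 (−4.32 to −3.84). At or below this value were 55 of 13693 genes tested, itself included (0.402%). Dtx3l, the ubiquitin ligase of that complex, had 2479 counts (146 CPM), 265 (15.0 CPM) and 4229 (122 CPM) in the same order, a log2 ratio of −3.23 (−3.46 to −3.09) with ADAR1i-124. Parp9 and Dtx3l were therefore both low in the same library and near the DMSO level in the 5-Aza-CdR library. The share of Parp9 in the counts of the pair was 50.9% (49.6% to 52.3%) with DMSO, 47.3% (46.2% to 48.4%) with 5-Aza-CdR and 37.4% (32.7% to 42.2%) with ADAR1i-124.

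Parp14, which carries macrodomains that bind ADP-ribose beside its catalytic domain, had 4539 counts (267 CPM) with DMSO, 205 (11.6 CPM) with ADAR1i-124 and 7463 (216 CPM) with 5-Aza-CdR. This was the largest difference of the 8 genes, −4.46 (−4.73 to −4.32) with ADAR1i-124. Parp12, a zinc finger member, had 2853 (168 CPM), 315 (17.9 CPM) and 3468 counts (100.3 CPM), a ratio of −3.19 (−3.40 to −3.06) with ADAR1i-124. Parp10, a mono-ADP-ribosyltransferase, had 753 (44.3 CPM), 98 (5.56 CPM) and 1753 counts (50.7 CPM), a ratio of −2.88 (−3.31 to −2.69). For each of these genes the ADAR1i-124 library held the lowest of the 3 total RNA values. In total RNA Plec, whose exons overlap those of Parp10, was higher with ADAR1i-124 by 1.67 on the log2 scale, opposite to Parp10.

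Zc3hav1 had 5423 counts (319 CPM) with DMSO, 5031 (286 CPM) with ADAR1i-124 and 11975 (346 CPM) with 5-Aza-CdR. Its log2 ratio with ADAR1i-124 was −0.16 (−0.21 to −0.10), and the median of all genes was −0.09. Zc3hav1 thus differed from DMSO far less than the other interferon-linked genes did. Parp1 had 1893 counts (111 CPM), 1199 (68.1 CPM) and 1377 (39.8 CPM), with log2 ratios of −0.70 (−0.81 to −0.60) with ADAR1i-124 and −1.47 (−1.58 to −1.38) with 5-Aza-CdR. Parp2 had 731 counts (43.0 CPM), 436 (24.7 CPM) and 864 (24.99 CPM), with ratios of −0.78 (−0.97 to −0.62) and −0.77 (−0.93 to −0.64). Both break sensors were thus highest in the DMSO library.

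By count, 5 of the 8 genes were more than 2-fold lower with ADAR1i-124, where 8.7% of 13693 genes were, and 0 were more than 2-fold higher, where 7.71% were. The median log2 ratio of the 8 was −3.04. With 5-Aza-CdR, 1 of the 8, Parp1, was more than 2-fold lower, where 8.96% of 14391 genes were, and 0 were higher, where 17.0% were. The 6 interferon-linked genes lay between −0.74 (Parp12, −0.81 to −0.67) and 0.19 (Parp10, 0.07 to 0.32) with 5-Aza-CdR. Parp9 had −0.46, Parp14 −0.30, Dtx3l −0.25 and Zc3hav1 0.12, beside a median of 0.06 over all genes. Both comparisons use the same DMSO library.

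Compared per length of exon, the order of the genes in the DMSO library was Zc3hav1, Parp12, Parp9, Parp14, Dtx3l, Parp1, Parp2 and Parp10, with levels from 48.9 down to 10.4 CPM per kilobase. Zc3hav1 (48.9, interval 47.6 to 50.2) and Parp12 (42.0, 40.4 to 43.5) stood apart, whereas the intervals of Parp2 (11.8) and Parp10 (10.4) overlapped. With the longest transcript as length, Parp1 (28.7) came before Dtx3l (27.4). With ADAR1i-124 the order turned to Zc3hav1 (43.8), Parp1 (12.9), Parp2 (6.82), Parp12 (4.48), Dtx3l (2.63), Parp9 (1.84), Parp10 (1.30) and Parp14 (1.25). The intervals of Parp9 (1.56 to 2.15) and Parp10 (1.06 to 1.59) overlapped there, as did those of Parp10 and Parp14 (1.09 to 1.43). In that library Zc3hav1 alone exceeded 20 of these units, against 6 genes in the DMSO library. With 5-Aza-CdR the levels were 53.1 for Zc3hav1, 25.1 for Parp12, 23.2 for Parp14, 22.6 for Parp9 and 21.4 for Dtx3l. The remaining genes were at 11.9 (Parp10), 7.53 (Parp1) and 6.89 (Parp2). Neighbours from Parp14 to Dtx3l overlapped in their intervals, as did Parp1 and Parp2.

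**Figure D2:**
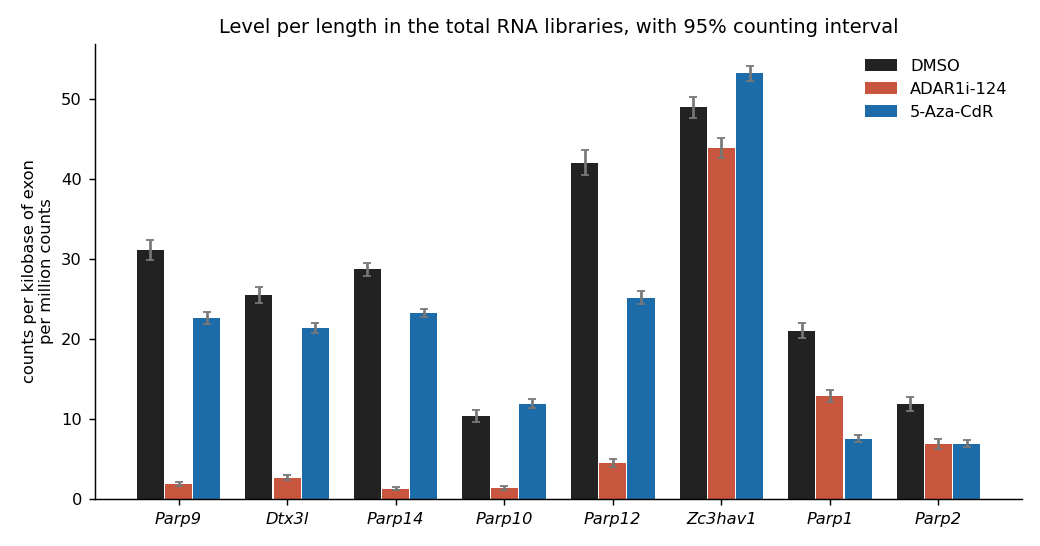
Level of each gene per length in the total RNA libraries of DMSO, ADAR1i-124 and 5-Aza-CdR. Bars give CPM per kilobase of exon and whiskers the 95% counting interval. Zc3hav1 stays at 43.8 or above in all 3 libraries, while Parp14 goes from 28.7 with DMSO to 1.25 with ADAR1i-124.

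Other interferon-stimulated genes were lower in the library labelled ADAR1i-124 as well. All 31 on the list were more than 2-fold lower, with a median of −4.44 and a range from −8.23 for Ifi44 to −1.98 for Adar, which encodes ADAR1. Oas2, an enzyme that makes the activator of RNase L, had 1611 counts with DMSO and 2 with ADAR1i-124. Zc3hav1, at −0.16, lay above every gene on that list, while Parp9, Dtx3l, Parp14, Parp10 and Parp12 lay within its range. With 5-Aza-CdR, 3 of the 31 were more than 2-fold higher and 2 lower, and the median was −0.16. The highest was Zbp1, a sensor of Z-form nucleic acid, at 2.13, followed by Irf7, an interferon-inducing transcription factor, at 1.42, and the lowest were the chemokine gene Cxcl10 at −1.39 and the ubiquitin-like Isg15 at −1.34.

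Among the other 9 PARP family genes, 1 was more than 2-fold lower with ADAR1i-124 and 0 were higher, with a median of −0.18. The lower one was Parp11, which had 897 counts with DMSO and 207 with ADAR1i-124, a log2 ratio of −2.12 (−2.39 to −1.95). Parp3, Parp4, Parp6, Parp8, Parp16, Tiparp, Tnks and Tnks2 lay between −0.55 (Tiparp) and 0.57 (Parp16). With 5-Aza-CdR, Parp16, a member of the endoplasmic reticulum membrane, was higher at 1.99 on 31 and 301 counts, and none was more than 2-fold lower. None of the 6 genes that remove ADP-ribose passed 2-fold in either comparison. Parg, Adprh, Adprhl2, Macrod1, Macrod2 and Oard1 lay between −0.68 (Macrod2) and 0.42 (Adprhl2) with ADAR1i-124 and between −0.34 (Oard1) and 0.52 (Adprhl2) with 5-Aza-CdR, with medians of −0.31 and 0.23. The same held for the 6 repair partners of PARP1 and PARP2 that were analysed, which ranged from −0.79 (Aptx) to 0.37 (Polb) with ADAR1i-124 and from −0.81 (Lig3) to 0.81 (Polb) with 5-Aza-CdR. Hpf1, a cofactor of both enzymes, was at −0.29 and −0.80 in these comparisons, the scaffold gene Xrcc1 at 0.04 and −0.09, and Aplf at −0.22 and −0.08.

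Of the Deltex family, to which DTX3L belongs, Dtx1 had 0 counts with DMSO and with ADAR1i-124 and 4 with 5-Aza-CdR. Dtx2 was higher in both comparisons, by 1.65 and 1.63, and Dtx3 by 1.33 with 5-Aza-CdR. Dtx4 was at −0.91 and −0.24. Dtx3l, at −3.23 with ADAR1i-124, was below all of them. Of the cofactors of ZAP, Trim25, a ubiquitin ligase which is also on the interferon list, was lower with ADAR1i-124 at −1.99 (−2.11 to −1.90), and Khnyn, a nuclease, was at −0.76. Zc3hav1 itself was at −0.16.

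**Figure D3:**
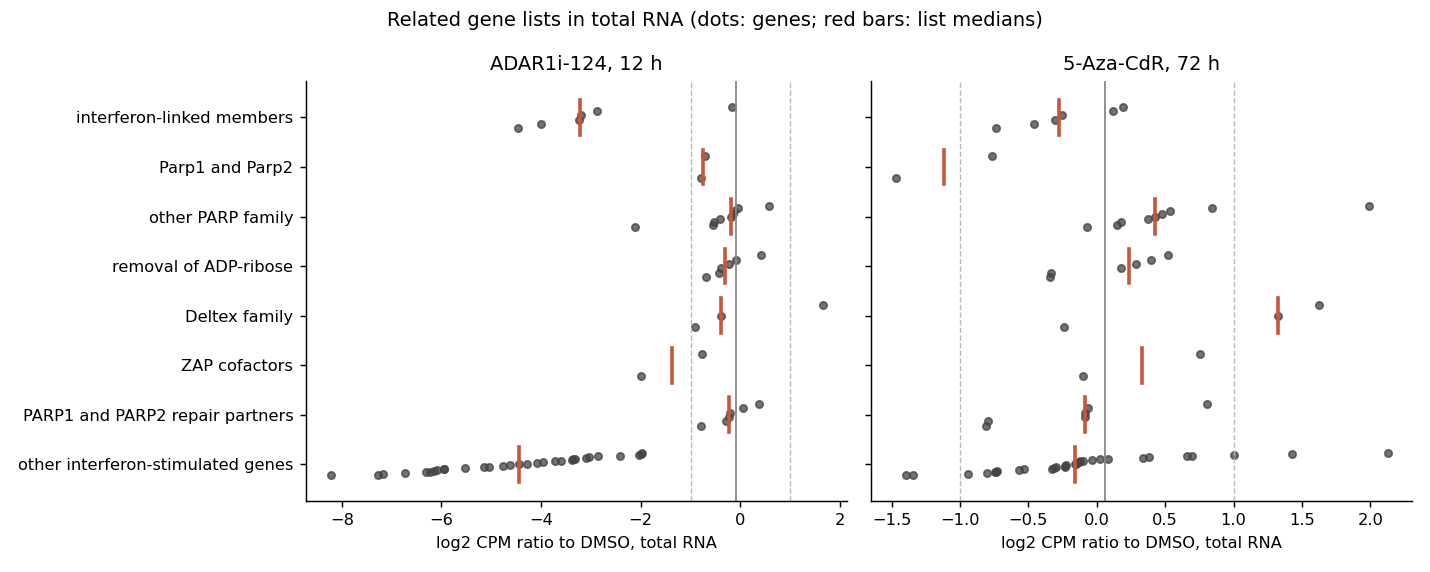
Log2 ratio of CPM to DMSO in total RNA for every gene tested of the related lists, with red bars at the list medians, grey lines at the median of all genes and dashed lines at 2-fold. With ADAR1i-124 the 31 other interferon-stimulated genes all lie at −1.98 or lower, as do 5 of the 6 interferon-linked members, and Parp11 is the only other PARP family gene beyond 2-fold.

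In the J2 libraries, Parp9, Dtx3l, Parp14, Parp10 and Parp12 were again lower with ADAR1i-124, but by less than in total RNA for Parp9, Dtx3l, Parp14 and Parp12, and Parp1 was higher. Parp9 had 70.8 CPM after DMSO, 28.4 after ADAR1i-124, 146 after 5-Aza-CdR and 129.9 after both. Dtx3l had 72.7, 31.7, 149.6 and 142 CPM, and Parp14 had 156, 58.5, 311 and 349 CPM in the same order. The lowest of the 4 J2 values was thus that of ADAR1i-124 for all 3, and the 5-Aza-CdR and combination values were above DMSO. Parp12 showed the same order with 86.7, 39.5, 172 and 144 CPM. Parp10 had 66.2, 11.7, 63.4 and 65.0 CPM, so only its ADAR1i-124 library stood apart. Zc3hav1 had 292, 185, 297 and 351 CPM.

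Parp1 differed from these genes in the J2 libraries, with 50.2, 123, 51.9 and 45.0 CPM, so that ADAR1i-124 gave its highest value. Parp2 had 30.3, 36.8, 26.9 and 22.2 CPM. By count, ADAR1i-124 left 5 of the 8 genes more than 2-fold below DMSO, where 10.8% of all genes were, and 1, Parp1, was higher, where 7.37% were. The log2 ratios were −2.46 for Parp10 (−2.75 to −2.26), −1.41 for Parp14, −1.30 for Parp9, −1.19 for Dtx3l, −1.13 for Parp12 and 1.28 for Parp1 (1.16 to 1.43). In total RNA the corresponding ratio of Parp1 was −0.70. Of the other interferon-stimulated genes, 28 of 31 were more than 2-fold lower in J2 and 0 higher.

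With 5-Aza-CdR, 2 of the 8 genes passed 2-fold higher in J2, Parp9 (1.04) and Dtx3l (1.04), where 8.61% of all genes did, and 0 passed lower, where 6.0% did. Parp14 (0.99) and Parp12 (0.98) lay just inside the line, while Parp10 (−0.06), Zc3hav1 (0.02) and Parp1 (0.05) were near 0. After subtracting the median of all genes, 0.06, none of the 8 passed the line, so these calls rest on the scaling. With the combination, Parp14 was the 1 gene above 2-fold against DMSO (1.16, interval 1.08 to 1.24), where 8.21% of all genes were, and 0 were below, where 3.88% were. Parp9 was at 0.87, Dtx3l at 0.96 and Parp12 at 0.72 there. Against 5-Aza-CdR alone, the combination moved none of the 8 past 2-fold, higher (1.44% of all genes) or lower (0.641%). These ratios ran from −0.27 for Parp2 to 0.24 for Zc3hav1.

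In the Z22 libraries the ratios of all genes to DMSO were shifted upward, and Gm42418 had its largest share in that DMSO library, so ratios are also given less the median of all genes. That median was 0.81 for ADAR1i-124, 1.06 for 5-Aza-CdR and 0.82 for both compounds. Parp10 had 152 CPM after DMSO, 31.4 after ADAR1i-124, 68.1 after 5-Aza-CdR and 102 after both. Parp14 had 227, 124, 207 and 349 CPM, and Dtx3l 61.1, 39.9, 71.5 and 106 CPM. For these 3 genes the ADAR1i-124 library was the lowest of the Z22 libraries, and for Parp10 the DMSO library was the highest. Parp9 had 39.0, 48.8, 83.5 and 127 CPM, Parp12 had 44.0, 50.3, 106 and 129.6 CPM, and Zc3hav1 had 145, 195, 252 and 319.8 CPM, all lowest with DMSO by library totals. Parp1 had 58.9, 158, 91.9 and 54.4 CPM, and Parp2 had 25.7, 33.7, 30.2 and 19.2 CPM, both highest with ADAR1i-124 by library totals, as in J2. Less the median of all genes, ADAR1i-124 lay below DMSO for Parp9 (−0.49), Parp12 (−0.62), Zc3hav1 (−0.38) and Parp2 (−0.42), so the direction of these 4 turned with the scaling, as it did with TMM and DESeq2 factors.

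Before the median was subtracted, 1 of the 8 genes was more than 2-fold higher with ADAR1i-124 in Z22 (Parp1, 1.41), where 42.9% of all genes were, and 1 lower (Parp10, −2.26), where 5.13% were. After it was subtracted, 0 were higher (17.6% of all genes) and 3 were lower (17.5%), namely Parp10 at −3.07, Parp14 at −1.68 and Dtx3l at −1.42. Parp1 was then at 0.60. Of the 31 other interferon-stimulated genes, 14 were lower and 1 higher with ADAR1i-124 in Z22 before the subtraction, and 26 lower and 0 higher after it. With 5-Aza-CdR, 2 were higher, Parp9 and Parp12 (52.1% of all genes) and 1 lower, Parp10 (4.1%), before, and 0 were higher (18.4%) and 2 lower (19.3%) after, Parp10 at −2.22 and Parp14 at −1.19. With the combination against DMSO, 3 were higher, Parp9, Parp12 and Zc3hav1 (43.4% of all genes) and 0 lower (5.03%) before, and 0 were higher (18.1%) and 2 lower (17.6%) after, Parp10 at −1.40 and Parp2 at −1.23. Parp10 was thus the gene that stayed low against DMSO in all 3 Z22 comparisons, each of which uses the same DMSO library. Plec, which shares exonic bases with Parp10 on the same strand, had 29255 counts in that library, against 1330 for Parp10. Less the median of all genes, Plec also lay below DMSO in Z22, at −0.94 (ADAR1i-124), −1.96 (5-Aza-CdR) and −0.84 (combination). The part of this overlap in the Z22 values of Parp10 was not tested.

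Against 5-Aza-CdR alone, the combination in Z22 moved 0 of the 8 genes past 2-fold, higher (2.28% of all genes, or 3.54% after subtraction of the median) or lower (7.11%, or 4.7%). All 6 interferon-linked genes lay above 0 and both break sensors below. Parp14 was at 0.75 (0.67 to 0.84), Parp9 at 0.60, Parp10 at 0.57, Dtx3l at 0.56, Zc3hav1 at 0.35 and Parp12 at 0.29, against −0.75 (−0.92 to −0.59) for Parp1 and −0.64 for Parp2. The median of all genes was −0.18 and their upper quartile 0.10. Of the other interferon-stimulated genes, 30 of 31 lay above 0 in this comparison, with a median of 0.45.

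**Figure D4:**
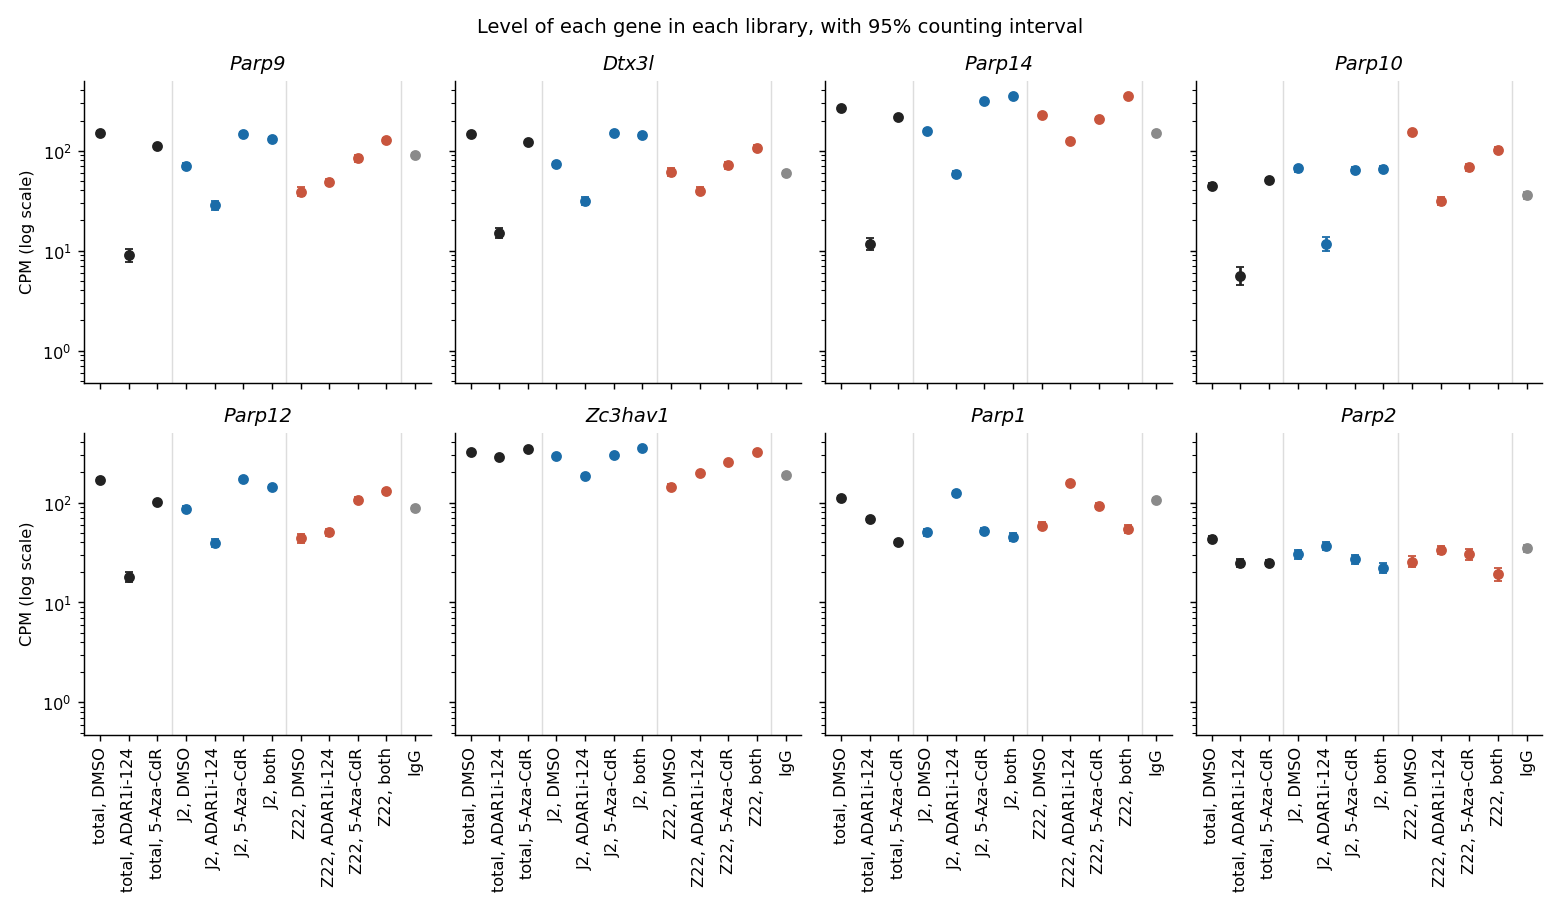
CPM of each gene in 12 libraries on a log scale, black for total RNA, blue for J2, red for Z22 and grey for IgG, with 95% counting intervals that are mostly smaller than the points. Parp14 runs from 11.6 CPM in total RNA with ADAR1i-124 to 349 CPM in the precipitated combinations, whereas Zc3hav1 stays between 145 and 351 CPM.

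**Figure D5:**
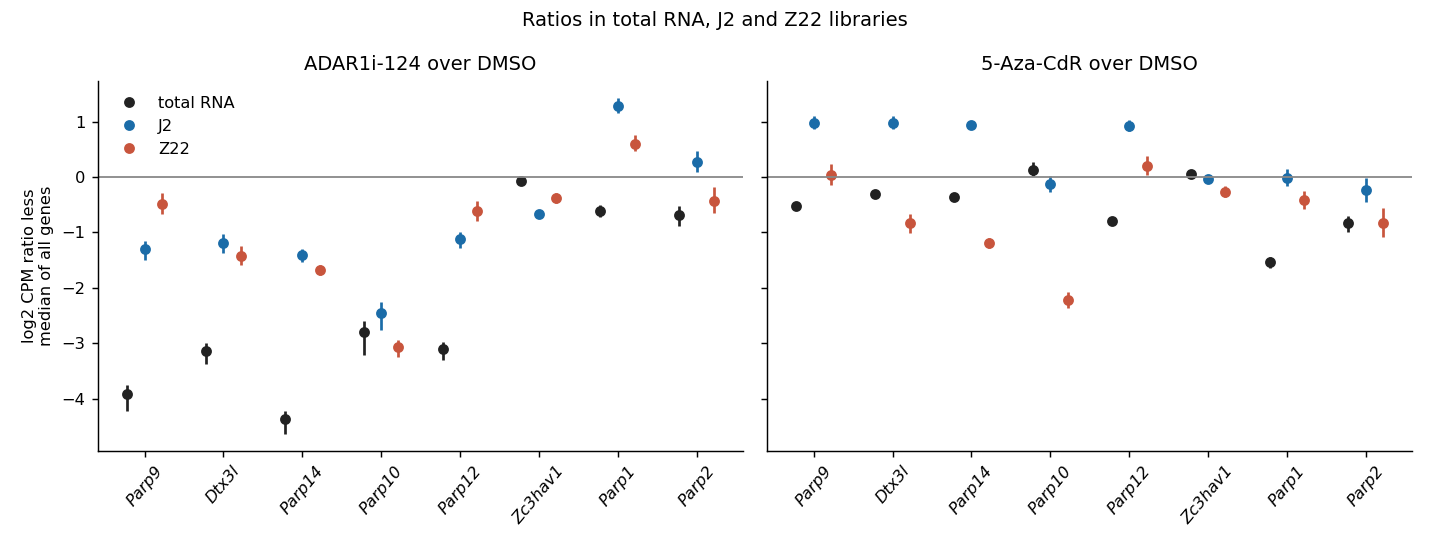
Log2 ratio to DMSO less the median of all genes, with 95% counting intervals, in total RNA (black), J2 (blue) and Z22 (red) for ADAR1i-124 and 5-Aza-CdR. With ADAR1i-124, Parp1 is below 0 in total RNA (−0.61) and above it in J2 (1.28) and Z22 (0.60), while Parp10 lies at −2.46 or lower in all 3.

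Relative to IgG, the 8 genes were spread around 0, and they were not more than 2-fold above it more often than all genes were. Their IgG levels were 90.8 CPM for Parp9, 59.3 for Dtx3l, 151 for Parp14, 35.8 for Parp10, 87.8 for Parp12, 190.4 for Zc3hav1, 107 for Parp1 and 34.7 for Parp2. In J2, 4 of the 32 ratios were more than 2-fold above IgG, where 12.6% of the ratios of all genes were, and 7 more than 2-fold below, where 6.77% were. In Z22, 3 of 32 were above (14.4% of all genes) and 1 below (15.3%). The highest was Parp10 in the Z22 library of DMSO at 2.07, where the median of all genes was −0.83. Plec, which overlaps Parp10, had 3350 CPM in that Z22 library and 465 CPM in IgG. Parp14 was above IgG at 1.04 and 1.21 in the J2 libraries of 5-Aza-CdR and the combination, and Dtx3l at 1.33 and 1.25. Below it in the J2 library of ADAR1i-124 were Parp9 (−1.66), Parp10 (−1.58), Parp14 (−1.36) and Parp12 (−1.14). Parp1 was below it in J2 with DMSO (−1.08), 5-Aza-CdR (−1.03) and the combination (−1.24), and at 0.20 with ADAR1i-124.

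Against total RNA of the same treatment, the 5 interferon-linked genes that were low in total RNA with ADAR1i-124 were higher in both precipitates of that treatment. J2 over total RNA with ADAR1i-124 was 2.28 for Parp14, 1.61 for Parp9, 1.12 for Parp12, 1.05 for Dtx3l and 1.01 for Parp10, against −0.63 for Zc3hav1. With DMSO it was −0.77 for Parp14, −1.09 for Parp9, −0.95 for Parp12, 0.58 for Parp10 and −0.12 for Zc3hav1. Z22 over total RNA with ADAR1i-124 was 3.36 for Parp14, 2.39 for Parp10, 2.38 for Parp9, 1.47 for Parp12 and 1.38 for Dtx3l. Parp1 was also more than 2-fold higher in this Z22 library, with 158 CPM against 68.1 in total RNA. Of the other interferon-stimulated genes, 26 of 31 were more than 2-fold higher in J2 of this treatment and 30 of 31 in Z22. Their medians were 1.75 and 3.09. Of all genes, 679 of 13475 and 629 of 13435 were. The total RNA value enters both these ratios and the ratios to DMSO above, so they are not independent of each other. Over the 3 treatments, 5 of 24 J2 ratios were more than 2-fold higher, where 5.17% of those of all genes were, and 2 lower, where 17.0% were. In Z22, 8 of 24 were higher (6.13% of all genes) and 4 lower (26.3%).

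Across the pools of RNA, Parp10 was the 1 gene of the 8 that passed a test. In a fit of treatment with total RNA, J2 and Z22 as blocks (edgeR's quasi-likelihood test with Benjamini-Hochberg adjustment over all genes), Parp10 was lower with ADAR1i-124 by a log2 ratio of −2.85 ± 0.37 (SE), adjusted p = 0.0463. With TMM factors computed over the 12 libraries read, all 6 interferon-linked genes lay below DMSO in 3 of 3 pools. By library totals, Parp9, Parp12 and Zc3hav1 lay above it in Z22. At the threshold of 0.05, 0.0817% of 13465 genes were called lower and 0.00743% higher. Dtx3l had −1.94 ± 0.47 (adjusted p = 0.19), Parp14 −2.46 ± 0.62 (0.218), Parp12 −1.62 ± 0.52 (0.393) and Parp9 −1.88 ± 0.65 (0.434), so that 5 of the 8 were lower at an unadjusted p under 0.05, as were 742 of the 13465 genes. The call of Parp10 was lost without the Z22 pair (−2.70, adjusted p = 0.234) and when libraries were scaled by their totals (−2.59, 0.275), and without the J2 pair Parp14 was called too (−3.07, 0.0141). Without the Z22 pair 0 of 13678 genes were called lower, and with library totals 0 of 13465. Without the J2 pair 80 of 13372 were. The error in this fit is how unevenly the pools answered, not the spread between cultures, and the pools of a treatment may come from the same RNA.

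With 5-Aza-CdR the same edgeR fit called 0 of the 8 genes, where 2.11% of 14145 genes were called higher and 0.29% lower. At an unadjusted p under 0.05 were 0 of the 8, against 921 genes higher and 487 lower. Parp10 had −0.69 ± 0.50 and Parp1 −0.64 ± 0.42 there. With the 4 treatments as blocks, Z22 was compared with J2, and 0 of 13898 genes were called (0.0% higher and 0.0% lower), although 1747 were higher and 1315 lower at an unadjusted p under 0.05. Of the 8, Parp10 (1.04 ± 0.33) and Parp1 (0.62 ± 0.19) were higher in Z22 at that level, each with an adjusted p of 0.144 by edgeR. Leaving out the DMSO pair, which holds the Z22 library with the largest share of Gm42418, gave 607 genes higher and 242 lower, none of them among the 8.

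A gene on the other strand, Gm15564, was followed because it overlaps the last 5854 bases of Parp9 and runs past its end, although it shares no exonic base with it. It was chosen after its values were seen. Gm15564 had 150 counts (8.82 CPM) in total RNA with DMSO, 12 with ADAR1i-124 and 8 with 5-Aza-CdR. In the Z22 library of DMSO it had 4971 counts (570 CPM), against 340 for Parp9, and in IgG it had 3401 (222 CPM). Its other Z22 levels were 92.7 CPM after ADAR1i-124, 41.1 after 5-Aza-CdR and 80.0 after both. Its J2 levels were 89.5 CPM after DMSO, 9.38 after ADAR1i-124, 155 after 5-Aza-CdR and 31.4 after both. The setting for strand in the counting was not given. Genes annotated as antisense took at most 0.176% of the counts in these libraries, against the 22.6% of the one left out.

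Over the 12 libraries, the genes whose log2 CPM was most like that of Parp9 were Irgm2 (Pearson r = 0.99), Irgm1 (0.99) and Igtp (0.98), all interferon-inducible GTPases. For Dtx3l they were Herc6 (0.97), Ddx58 (0.96) and Irgm2 (0.96), and for Parp14 Ifih1 (0.99), Oas1b (0.99) and Dhx58 (0.98). Parp12 was most like Parp9 and Ddx58 (0.98 each) and Irgm1 (0.97), and Parp10 was most like Helz2, Nub1 and Uba7 (0.96 each). Zc3hav1 was most like Atg14 and Tax1bp1 (0.95 each) and Tbrg1 (0.94), Parp1 like Timeless (0.97), Ddx11 and Rfc1 (0.94 each), and Parp2 like Sdha and Acat1 (0.93 each) and Fkbp5 (0.90). Within the 8 genes, Parp9 and Parp12 (0.98) and Parp9 and Dtx3l (0.95) were the most alike, Zc3hav1 had 0.44 with Parp9, and Parp1 had 0.77 with Parp2. Without the Z22 library of DMSO, 0 of the 3 genes named for Parp10 and for Zc3hav1 stayed among their 3 most alike. These correlations describe 12 libraries that share treatments and precipitations and were ranked among the 8889 genes that averaged 10 CPM or more.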

How the data were processed

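Raw counts per gene in 13 libraries, as the authors deposited them, were used without change. According to the methods of the study, paired reads from rRNA-depleted libraries were mapped with STAR 2.7.10b in snakePipes 2.8.0 to GRCm38 with GENCODE release 19. The counting tool and its strand setting are not given in the sources used here. Groups were taken from the sample labels. After removal of the version, 54409 identifiers had a symbol in GENCODE M21 and 123 had none.

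Counts were divided by the table total of each library (CPM), and log2 ratios were taken after adding 0.5 CPM. Genes tested averaged 1 CPM or more in the compared libraries, and a gene was called past 2-fold. Each condition had 1 library, so no single comparison of libraries was tested. Treatment was tested over total RNA, J2 and Z22, and Z22 against J2 over the 4 treatments, in edgeR quasi-likelihood fits with the pairs as blocks and TMM factors. These fits were chosen after seeing the data. The smallest number of counts taken as detected was 3, which is 0.0868 to 0.367 CPM in the 12 libraries read. Levels between genes were divided by the exon length of the annotation. The calculation was checked on simulated counts. Scaling by edgeR 4.0.16 (TMM) and DESeq2 1.42.0 factors in R 4.3.3 and by totals without the 20 top genes, pseudocounts of 0.1 and 2 CPM, a 4-fold line, other filters, protein-coding genes only and longest transcripts were tried. Subtracting the median of all genes before applying the line and the half-site were alternatives chosen after seeing the data. Python 3.11.15 with numpy 2.4.6, pandas 2.3.3, scipy 1.17.1 and matplotlib 3.10.9 was used. The genes studied, the related lists and the rule for named genes (all 8 genes, the 3 genes most like each, all genes of lists of at most 10, and the 2 largest rises and falls past 2-fold of the longer list in total RNA) were chosen with earlier results of these data known. Gm15564, Plec, Adar, Gm42418 and the marker genes were named outside that rule. A gene of the repair list is not reported here.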

Additional observations from a re-analysis of the deposited data

Results flagged for a closer look

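In several cases a gene moved one way in total RNA and the opposite way in precipitated RNA, relative to the median of all genes. The difference itself was not tested, since each value rests on 1 library per condition. With ADAR1i-124, Parp1 was lower than DMSO in total RNA and higher in J2, a difference of 1.9 on the log2 scale, and higher in Z22, a difference of 1.22. Parp2 showed the same opposition in J2, with a difference of 0.97.

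With 5-Aza-CdR, 4 interferon-linked genes were lower in total RNA and higher in J2. The differences were 1.72 for Parp12, 1.5 for Parp9, 1.3 for Parp14 and 1.29 for Dtx3l. Of the 31 other interferon-stimulated genes, 22 lay below 0 in total RNA and 30 above 0 in J2, before the median of all genes was subtracted. Less that median, their list medians were −0.22 and 0.59. Parp12 was also above its total RNA value in Z22, by 1.0. Parp10 and Zc3hav1 went the other way in Z22, with differences of −2.35 and −0.32.

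The total RNA library of the combination, which no comparison uses, held counts above the limit of 3 for Dtx3l (316), Parp9 (133), Parp2 (22), Parp14 (17) and Zc3hav1 (4). Parp12 and Parp1 had 0 there and Parp10 had 1. The counts of that library follow the other strand, so they set no limit on the level of these genes, and Parp9 and Dtx3l overlap each other on opposite strands.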

How the results depend on the processing

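In the fits paired over pools, the 1 gene called lower with ADAR1i-124 became 0 with library totals and 0 to 2 when a pair was left out. Of all genes, 0 of 13465 were called lower with library totals and 0 of 13678 without the Z22 pair. Without the J2 pair 80 of 13372 were called lower, and without the total RNA pair 573 of 13240. The 5 genes lower with ADAR1i-124 in total RNA were 5 under every scaling, pseudocount, filter and line tried. With a line at 4-fold the counts fell to 0 for Parp1 lower with 5-Aza-CdR in total RNA (from 1), to 1 lower (from 5) and 0 higher (from 1) with ADAR1i-124 in J2, to 0 higher with 5-Aza-CdR (from 2) and the combination (from 1) in J2, to 0 higher in each Z22 comparison with DMSO and 0 lower with 5-Aza-CdR in Z22. Among the 31 interferon-stimulated genes with 5-Aza-CdR it left 1 higher (from 3) and 0 lower (from 2), and it removed Parp16, leaving 0, as did a minimum of 10 CPM.

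With TMM factors, DESeq2 factors, totals without the 20 top genes or subtraction of the median, 0 genes were higher with 5-Aza-CdR in J2, where 4 genes lay near the line. In Z22 with ADAR1i-124 each of the 4 gave 0 higher and 3 lower. In Z22 with 5-Aza-CdR each gave 0 higher, and 2 were lower except with the top genes left out. With the combination, 0 were higher and 2 lower except with the top genes left out. Ratios to IgG below 2-fold were 5 (from 8) with the top genes left out, and ratios to total RNA below 2-fold were 0 with TMM and DESeq2 factors and 2 with the top genes left out (from 6). Zc3hav1 in Z22 over total RNA with DMSO was −1.14 and turned to 0.10 with DESeq2 factors. The median of all genes in the Z22 comparisons with DMSO was 0.81 to 1.06 by totals and −0.02 to 0.03 with DESeq2 factors. With the longest transcript as length, 4 of 8 genes kept their rank with 5-Aza-CdR and 6 with DMSO, where Dtx3l and Parp1 changed places. The named most alike genes depended on the measure and on 1 library. Spearman's rank correlation left 0 of 3 for Dtx3l, Zc3hav1 and Parp1, and leaving out the Z22 library of DMSO left 0 of 3 for Parp10 and Zc3hav1, and each left at most 1 of 3 for 6 of the 8 genes.

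The single library per condition limits all these values. The lowest count of a member in a library read was 98.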
